A study of Homo sapiens with 3 samples.

Results

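The 94 potassium channel genes described here are those whose symbol begins with KCN, followed by a family letter or letter pair and a digit. Antisense and overlapping non-coding transcripts, such as KCNQ1OT1, were left out. They make up 94 of the 22825 genes counted in MDA-MB-231, an established human triple-negative breast cancer line. All 3 libraries belong to 1 group, cells that received a control siRNA. It was given at 50 nM in a pair of transfections 24 h apart, and RNA was taken 48 h after the second. Per the labels the 3 libraries are biological replicates, sequenced as paired reads of 100 bp, and cells of the study that received another siRNA are not analysed here. With a single group there was no contrast between conditions. The data give the level of each channel gene, the spread between replicates, and the place of each channel class among the others.

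Potassium channels let potassium ions flow down their gradient across a membrane, and in most cells they hold the membrane potential negative. Each channel is built from pore-forming subunits, and the ion-selective part of the pore, the selectivity filter, is a short stretch of residues shared by nearly the whole superfamily. The classes differ in what opens the pore. Voltage-gated channels open on depolarisation, calcium-activated channels open when calcium rises in the cell, inward rectifiers pass current more easily into the cell, and two-pore channels carry leak currents. Accessory subunits form no pore and change the trafficking or gating of the channel they bind. In cancer cells the channels are studied for their links to proliferation, volume control and migration.

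The selectivity filter was read from the coding sequence of the 8 pore-forming genes that reached 1 CPM (a count divided by the depth of its library) in each library. It is shown because it is the stretch that makes these otherwise different proteins potassium channels. Each line gives 45 bases of coding sequence from GENCODE 29 transcripts (GRCh38), 5′ to 3′, and the capitals mark the 5 codons of the filter. These encode threonine or serine, any residue, glycine, tyrosine or phenylalanine, and glycine.
KCNN4: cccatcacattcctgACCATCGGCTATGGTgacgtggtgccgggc
KCNN2: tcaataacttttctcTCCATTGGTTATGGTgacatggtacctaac
KCNK1: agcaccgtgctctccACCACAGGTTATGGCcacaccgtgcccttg
KCNK6: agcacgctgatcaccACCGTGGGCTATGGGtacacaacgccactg
KCNS3: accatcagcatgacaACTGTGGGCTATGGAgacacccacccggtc
KCNQ5: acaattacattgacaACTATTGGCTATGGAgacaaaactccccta
KCNC4: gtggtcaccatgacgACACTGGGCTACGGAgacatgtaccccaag
KCNJ14: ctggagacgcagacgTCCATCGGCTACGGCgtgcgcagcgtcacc

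The KCNN4 stretch lies in a coding exon at chr19:43772042-43772086 on the minus strand, and the KCNN2 stretch at chr5:114463104-114463148 on the plus strand. KCNS3 holds it at chr2:17932101-17932145, KCNC4 at chr1:110223576-110223620 and KCNJ14 at chr19:48462148-48462192, all on the plus strand. In KCNK1, KCNK6 and KCNQ5 the 45 bases span a splice junction. Among these filters, the 15 bases of KCNN4 matched those of KCNN2, KCNQ5, KCNJ14 and KCNK6 at 12 positions each, those of KCNK1 and KCNS3 at 11 and those of KCNC4 at 10. KCNS3 matched both KCNQ5 and KCNK6 at 13 of 15. In all 78 pore-forming genes of the 94, the coding sequence held this codon pattern in frame at least once, against 0 of the 16 accessory genes. Among the other 19626 protein-coding genes of the annotation, 492 (2.51%) held it. Of the 15 two-pore genes, whose subunits each carry a pair of pore loops, 11 held it at 2 places and 4 at 1 place, KCNK1 and KCNK6 among the 4. The search reads the letters of the coding strand only, so a single match in a two-pore gene says only that the other loop does not spell this pattern.

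Gene totals were 68645361, 84857136 and 54497019 counts in replicates 1, 2 and 3, so that 1 CPM stood for 68.3, 84.7 and 54.9 counts. For a gene without counts, the upper limit was 0.0878, 0.0708 and 0.109 CPM in replicates 1, 2 and 3. This is the level of 6 counts, or 3 read pairs with both mates counted, and it covers counting error only. The line's own markers VIM, CD44, EGFR, KRT8 and KRT18 were all present, and the hormone receptor genes ESR1 and PGR lay below 1 CPM. ERBB2 reached 32.3, 30.7 and 28.3 TPM (CPM divided by transcript length and rescaled by the same factor in every library, a level that can be compared between genes). Summed levels of 5 neuron markers lay between 1.71 and 1.81 TPM, most of it SYT1 (1.69, 1.55 and 1.58 TPM), with STMN2 at 0, and those of 5 muscle markers between 0 and 0.107 TPM, with MYH6, MYH7 and TNNT2 at 0. The 5 leukocyte markers summed to between 2.66 and 3.24 TPM, most of it CD14 (2.23, 2.63 and 2.46 TPM), with SPI1 at 0. Endothelial markers (4) summed to between 2.29 and 2.51 TPM, with PECAM1 and KDR above 1 CPM in each library. Fibroblast markers (4) summed to between 8.22 and 9.84 TPM, with COL1A1 and PDGFRB above 1 CPM in each library and DCN at 0. In RNA from many cells, fewer cells that express a gene and less of its RNA per cell cannot be told apart.

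Most potassium channel genes had few or no counts in these cells. Of the 94, 15 reached 1 CPM in each library (16.0%), beside 55.5% of all genes, and 24 had no count in any library (25.5%), beside 17.9% of all genes. Another 55 had a count but stayed below the threshold in at least 1 library, and 46 had counts in all 3 (48.9%), beside 71% of all genes. The median member lay at 0.05 ± 0.0017 on the log2(TPM + 1) scale, against 2.18 ± 0.0131 for all genes (SD, n = 3). Summed over the 94, the level was 144, 151 and 141 TPM, and the 15 detected genes held 94.8% ± 0.102 of it (SD, n = 3). A small number of genes therefore carried nearly all of the signal, and no library stood apart in that sum.

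**Figure D1:**
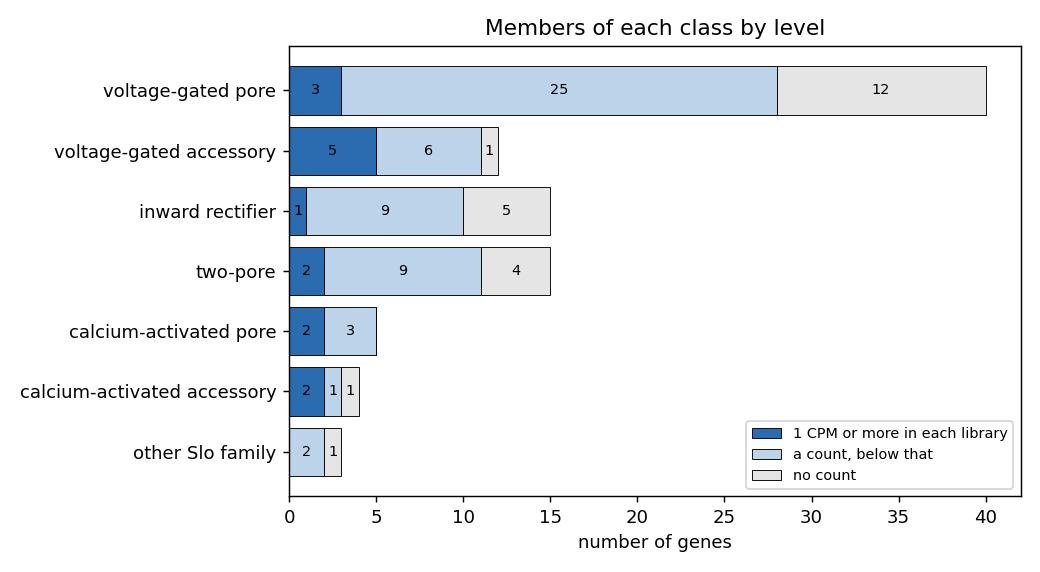
Number of genes in each class (horizontal axis) that reached 1 CPM in each of the 3 control siRNA libraries, had a count below that, or had no count. Voltage-gated pore genes are the largest class, with 3 of 40 at 1 CPM and 12 without a count, while 5 of 12 voltage-gated accessory genes reached 1 CPM.

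KCNN4 stood first among the channel genes. It encodes the intermediate-conductance calcium-activated channel, also known as the Gardos channel of red blood cells, which opens when calcium binds its calmodulin. The gene, Entrez 3783, had 4364, 5741 and 3243 counts, or 71.7, 76.1 and 66.4 TPM, with a mean of 71.4 ± 4.87 (SD, n = 3). Replicate 2 was the highest and replicate 3 the lowest, and in each library KCNN4 lay above the other 93 genes. Its level exceeded 85.5% of all genes that had a count. Per length it was 4.48 ± 0.211 times that of KCNIP3, the next member, and 22.7 ± 2.06 times that of KCNN2 (SD, n = 3). The ratio to KCNIP3 was 1.502 ± 0.0705 when KCNIP3 was divided by the length of its counted record (SD, n = 3). Of the level summed over the 78 pore-forming genes it held 62.4%, 62.7% and 59.1%. On the CPM scale, which does not divide by length, that share was 48.9% ± 1.74 (SD, n = 3), so whether KCNN4 exceeds all other pore genes together depends on the scale.

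The other calcium-activated genes were much lower. KCNN2, the small-conductance channel SK2, had 3.41, 3.04 and 3.02 TPM, and its pair of records held 404 and 654 counts in all, so its level depends on which is read. KCNMA1, the large-conductance BK channel, missed the threshold in replicate 3 with 1.02, 1.09 and 0.729 CPM, or 0.414, 0.439 and 0.295 TPM. KCNN4 was 191 ± 29.99 times KCNMA1 per length (SD, n = 3). KCNN1 had 8, 13 and 3 counts, and KCNN3, the SK3 channel, had 2 counts in replicate 3 alone. The 5 genes of the class thus ranged from the highest channel gene in the cells to one that was barely counted.

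The BK channel's beta subunits, which tune its calcium sensitivity and inactivation, had 2 of 4 genes above the threshold, each higher per length than KCNMA1 in all 3 libraries. KCNMB4 had 1.11, 1.01 and 0.835 TPM. KCNMB3 had 0.468, 0.484 and 0.513 TPM, from 92, 118 and 81 counts. KCNMB2 had 9, 0 and 4 counts and KCNMB1 none. In KCNMB3, 47.5% of exon bases overlapped other genes, among them PIK3CA on the opposite strand at 47.0, 44.5 and 53.1 CPM, and its 5 records held between 89 and 291 counts in all. The part of overlapping reads in its level was not tested, and whether counting used strand is not given in the sources used here.

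**Figure D2:**
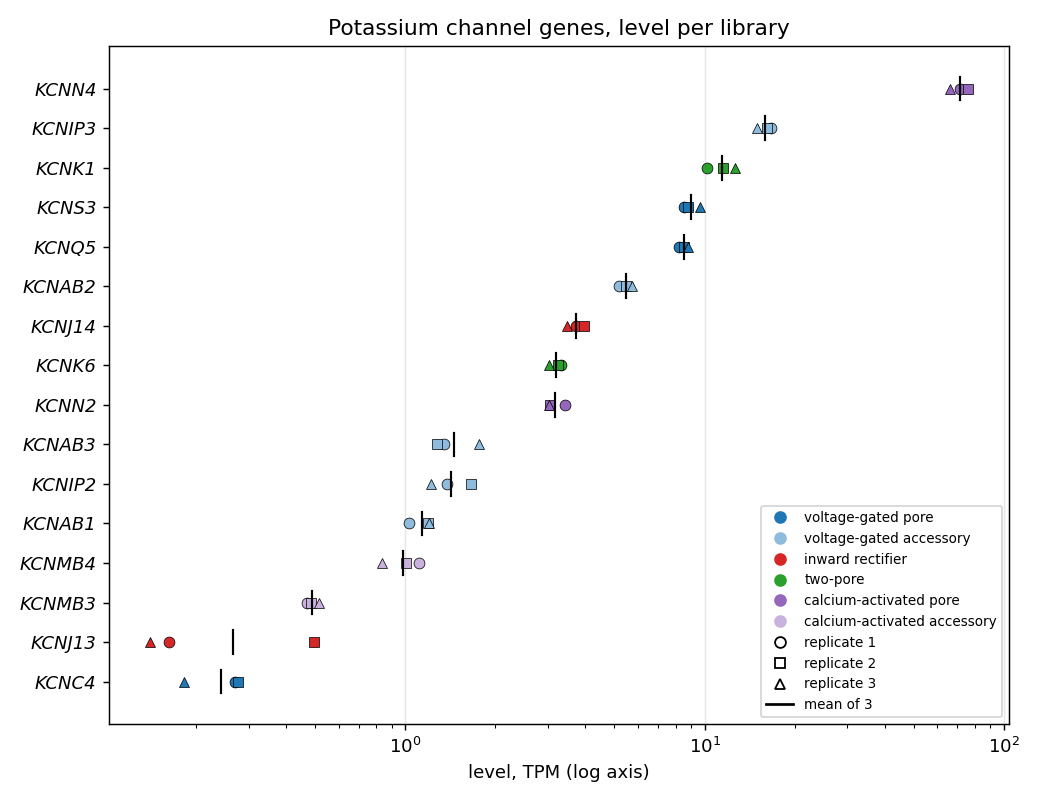
Level of the 15 genes at 1 CPM or more in each library, and of KCNJ13, in TPM on a log axis, with 1 symbol per replicate, colour for the class and a vertical bar for the mean of 3. KCNN4 lies between 66.4 and 76.1 TPM, above KCNIP3 at 15.01 to 16.6 TPM, and KCNJ13 shows replicate 2 apart from the other two.

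Voltage-gated pore genes formed the largest class and were mostly below the threshold: 3 of 40 reached 1 CPM and 12 had no count. KCNS3, a modifier subunit that is electrically silent alone and assembles with other voltage-gated subunits, had 8.57, 8.79 and 9.65 TPM. KCNQ5, a subunit of the slow M-type current, had 8.19, 8.57 and 8.84 TPM. The ranges of KCNS3 and KCNQ5 overlapped, and their order turned with the scale: KCNS3 was 1.05 times KCNQ5 in TPM but 0.368 times in CPM. Both stood well above the remaining voltage-gated genes.

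KCNC4, a Kv3 channel subunit, was the third gene of the class at 1 CPM. It had 137, 174 and 74 counts, which made 2.01, 2.05 and 1.35 CPM. Over a transcript of 18750 nt this came to only 0.242 ± 0.0529 TPM (SD, n = 3), a level that rests on this length, for which no other was tried. KCND1, a Kv4 subunit of fast transient currents, lay just outside with 1.26, 0.850 and 1.003 CPM. KCNQ3 had 0.864, 0.980 and 0.674 CPM, and KCNQ1 had 2, 2 and 7 counts. Both lay well below KCNQ5.

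In the KCNA, KCND and KCNH families of voltage-gated channels, no gene reached 1 CPM in each library. Of 8 KCNA genes none reached 1 CPM and 5 had no count, KCNA1 to KCNA5; the highest, KCNA6, had 6, 30 and 15 counts. KCND2 and KCND3 had 2 counts each, in replicate 2. In the KCNH family, KCNH8 led with 0.348 ± 0.0859 TPM and KCNH1, the ether-à-go-go channel often studied in tumours, had 0.149, 0.124 and 0.129 TPM. KCNH2, the hERG channel of the heart, had 2 counts in replicate 3 and none in the others, and KCNH6 had none. The silent subunits KCNF1, KCNG2 and KCNV2 had at most 2, 7 and 22 counts in a library.

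Among the accessory genes of the voltage-gated channels, detection was more frequent than among the pores, by count. Of 12 genes, 5 reached 1 CPM in each library and 1, KCNIP1, had no count. KCNIP3, an EF-hand calcium-binding protein that binds Kv4 channels and is also known as the transcriptional repressor DREAM and as calsenilin, had 16.6, 16.1 and 15.01 TPM. Its level rests on the transcript length: divided by the shorter transcript linked to the counted record, its mean was 44.99 TPM. KCNIP2 had 1.38, 1.66 and 1.22 TPM (mean 1.42, but 3.90 with the shorter length), its 7 records held between 111 and 298 counts, and its antisense gene KCNIP2-AS1, which shares 10.5% of its exon bases, had 31, 58 and 20 counts. KCNIP4 reached 1 CPM only in replicate 2, with 0.6001, 1.19 and 0.820 CPM.

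The KCNAB genes encode cytoplasmic beta subunits of Kv1 channels with the fold of an aldo-keto reductase, and all 3 were detected. KCNAB2 had 5.20, 5.45 and 5.73 TPM. KCNAB3 had 1.35, 1.27 and 1.76 TPM, and KCNAB1 had 1.03, 1.19 and 1.203 TPM. Thus each Kv1 beta gene was above all 8 of the Kv1 pore genes. KCNE genes, single-pass partners of several voltage-gated channels, were all below 1 CPM, and the highest, KCNE1L (KCNE5), had 0.701, 0.424 and 0.811 TPM.

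Counted over all classes, 7 of 16 accessory genes (43.8%) reached 1 CPM in each library, against 8 of 78 pore-forming genes (10.3%), beside the 55.5% of all genes. Of the accessory genes 2 had no count, against 22 of the pore-forming genes. Summed levels were 28.9 ± 0.429 TPM over the 16 accessory genes and 116 ± 4.71 TPM over the 78 pore-forming genes (SD, n = 3). These sums cover unlike numbers of genes, and KCNN4 alone made up most of the pore-forming sum. The accessory sum also rests on length, since KCNIP3 had 15.9 TPM, or 44.99 with the length of its counted record.

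Two-pore genes were represented by 2 of 15 at 1 CPM. KCNK1, the TWIK-1 leak channel, had 10.2, 11.5 and 12.7 TPM, and KCNK6, the related TWIK-2, had 3.31, 3.23 and 3.02 TPM. KCNK1 was the higher in each library, 3.61 ± 0.560 times KCNK6 in TPM and 1.36 ± 0.211 times in CPM (SD, n = 3). The other genes of the class were low. KCNK7 had 17, 25 and 15 counts, KCNK2 (TREK-1) had 28, 19 and 17, and KCNK5 (TASK-2) had 4, 9 and 1. KCNK9 (TASK-3), amplified in some breast tumours, had 4 counts in replicate 2 alone, and KCNK3, KCNK16, KCNK17 and KCNK18 had none.

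Among the inward rectifiers a single gene, KCNJ14 (Kir2.4), reached 1 CPM in each library. It had 3.71, 3.96 and 3.46 TPM, and it held 79.4% of the level of its class. Its exons overlap those of other genes over 24.2% of their bases, among them GRWD1 on the same strand at 54.0, 52.8 and 49.1 CPM, and the part of shared reads in its level was not tested. The classical strong inward rectifier KCNJ2 had no count, and neither had KCNJ1, KCNJ3, KCNJ5 or KCNJ16. KCNJ8 and KCNJ11, the pores of ATP-sensitive channels, had 16, 38 and 19 counts and 8, 6 and 3 counts. The Slo-family genes outside the calcium-activated class were low: KCNT2, a sodium-activated channel gene, had 0.443, 0.560 and 0.542 TPM, KCNT1 had 2, 0 and 2 counts, and KCNU1 none.

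The classes kept the same order in every library in TPM. Calcium-activated pores held 51.7% ± 1.83 of the summed level, voltage-gated accessory subunits 18.9% ± 0.398, voltage-gated pores 14.1% ± 0.903, two-pore channels 10.7% ± 0.883 and inward rectifiers 3.22% ± 0.239 (SD, n = 3). Calcium-activated accessory subunits held 1.06% ± 0.107 and the other Slo genes 0.363% ± 0.0407. Calcium-activated pores exceeded voltage-gated pores by 3.67 ± 0.352 times, two-pore channels by 4.85 ± 0.541 times and inward rectifiers by 16.1 ± 0.682 times in TPM (SD, n = 3). Two-pore channels had 0.759 ± 0.022 times the level of voltage-gated pores and 3.35 ± 0.512 times that of inward rectifiers. The directions among the 4 pore classes were the same in 3 of 3 libraries in TPM and in CPM, though the calcium-activated pores exceeded the voltage-gated pores by only 1.79 ± 0.147 times in CPM. No p-value is given for these ratios, since an exact sign permutation over 3 libraries cannot reach 0.05.

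The lead of the calcium-activated class was that of 1 gene. KCNN4 made up 95.2% of it, KCNK1 73.6% of the two-pore class, KCNIP3 58.2% of the voltage-gated accessory class and KCNS3 44.0% of the voltage-gated pores. The median gene of each class was low, at 0.47 for calcium-activated pores, 0.04 for two-pore channels, 0.03 for inward rectifiers and 0.0058 for voltage-gated pores on the log2(TPM + 1) scale. All 4 lay below the median of all genes, 2.18. The two-pore median lay above that of inward rectifiers in replicates 1 and 2 (0.0556 and 0.0499 against 0.0303 and 0.0279). In replicate 3 it lay below, with 0.0175 against 0.0314. For voltage-gated pores the median was 0, 0.0132 and 0.00415 in replicates 1, 2 and 3. With each gene's records summed instead of the largest taken, the first place among the classes changed. The calcium-activated share was then 31.7% and the voltage-gated accessory share 34.3%. In that sum, reads shared by the records of a gene may count more than once. KCNN4 had 1 record, while the 2 records of KCNIP3 held 3871 and 3881 counts in all. The part of shared reads in this change was not tested. In CPM the voltage-gated pores, with 22.6%, passed their accessory subunits, with 20.4%.

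**Figure D3:**
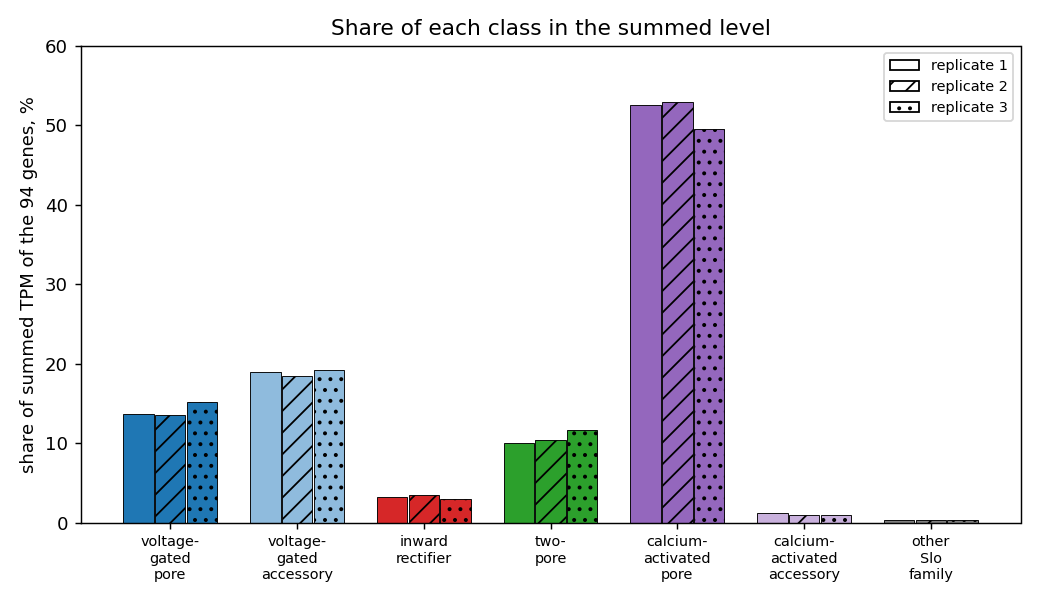
Share of each class in the summed TPM of the 94 genes, in percent, with 1 bar per replicate. Calcium-activated pores hold the largest share in each library (51.7% ± 1.83, SD, n = 3), and the replicates differ little in any class.

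Ordered by mean TPM, the 15 detected genes ran KCNN4, KCNIP3, KCNK1, KCNS3, KCNQ5, KCNAB2, KCNJ14, KCNK6, KCNN2, KCNAB3, KCNIP2, KCNAB1, KCNMB4, KCNMB3 and KCNC4. Of the 14 neighbouring pairs, 10 had ranges that did not overlap between the 3 libraries. The 4 that did were KCNS3 with KCNQ5, KCNK6 with KCNN2, KCNAB3 with KCNIP2, and KCNAB1 with KCNMB4, whose order is therefore not settled by these libraries. Places of other genes in this order can also depend on length and scale. With the length of the counted record KCNIP2 had a mean of 3.90 TPM, above KCNJ14 with 3.51. In CPM the mean of KCNK6 was 7.24, above that of KCNJ14, 4.36. Between replicates the detected members had a median coefficient of variation of 6.82% in CPM, between 3.79% and 21.8%, against 5.05% for all detected genes.

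Variation between replicates was tested against counting noise with an edgeR fit over 14466 genes, with Benjamini-Hochberg adjustment. Of the 31 members that passed the filter on low counts, 2 were called, KCNN4 and KCNJ13, or 6.45%, beside 28.3% of all tested genes. The tested members had a median total of 213 counts, against 4854.5 for all tested genes, so the members' counts gave less precision. KCNN4 lay 0.01 and 0.09 above and 0.10 below its own mean in replicates 1, 2 and 3 on the log2 scale (adjusted p = 0.000463). Without replicate 2 its adjusted p was 0.0739, and without replicate 3 it was 0.202. Genes of similar base composition leaned the same way: KCNN4's transcript is 61.3% GC, and 1216 genes grouped with it by GC content, with a median of 60.2%, had median deviations of 0.04, 0.03 and -0.07. The part of base composition in the result was not tested.

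KCNJ13 (Kir7.1) encodes a weakly rectifying channel of epithelia, and it was low in every library. It had 13, 49 and 9 counts, or 0.190, 0.578 and 0.164 CPM, so replicate 2 stood apart from the others (adjusted p = 0.0142). Without replicate 2 the adjusted p was 0.908, and without replicate 3 it was 0.0604. GIGYF2, which overlaps it on the opposite strand, was at 85.0, 83.8 and 91.2 CPM and the part of overlapping reads in the result was not tested. KCNH3, left out by the filter on low counts, had 33, 6 and 0 counts (edgeR adjusted p = 4.8e-05 with no filter). With a coefficient of variation of 0.05 between libraries allowed for, 0 members were called, beside 0.0484% of all tested genes. On the counts as deposited 5 members were called, beside 52.9% of all tested genes.

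**Figure D4:**
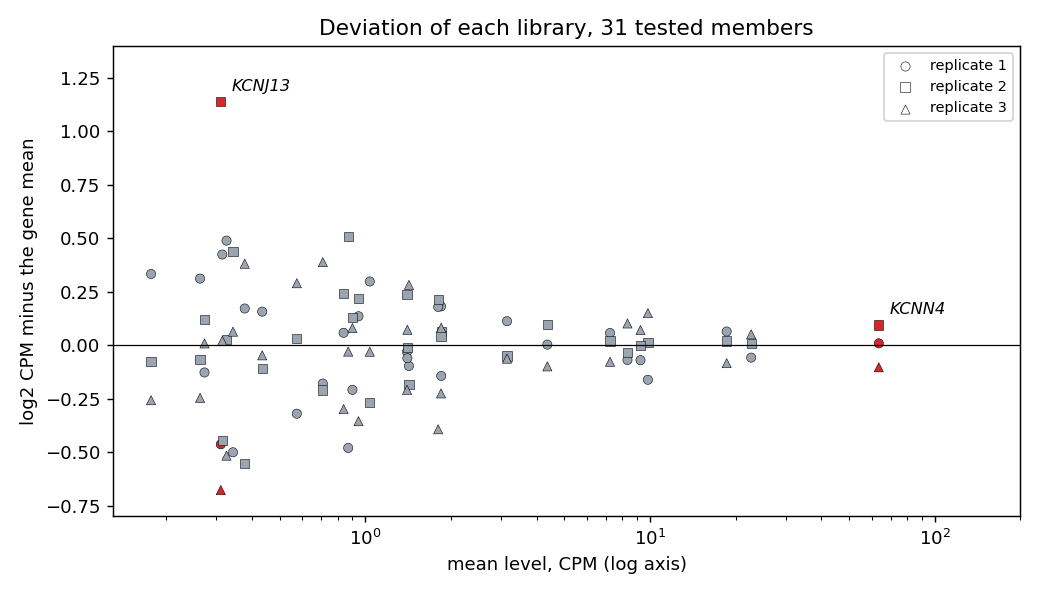
Log2 CPM of each library minus the gene's own mean (vertical axis) against mean CPM on a log axis, for the 31 tested members, with 1 symbol per replicate and the 2 called genes in red. Spread widens at low levels, KCNJ13 lies 1.14 above its mean in replicate 2, and KCNN4 lies within 0.10 of its mean.

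Genes that work with the channels were measured from 3 lists. Of 9 accessory subunits outside the KCN names, 3 were detected, beside 55.5% of all genes. The other 6, ABCC8 and DPP6 among them, had no count, beside 17.9% of all genes. ABCC9, the SUR2 sulfonylurea receptor of ATP-sensitive channels, had 2.70, 3.21 and 3.28 TPM, above its pore partners KCNJ8 and KCNJ11. LRRC26, a gamma subunit of the BK channel, had 5.16, 4.11 and 3.65 TPM, above KCNMA1. AMIGO1, a partner of voltage-gated channels, had 4.997, 4.86 and 4.97 TPM. None of the 3 was called as varying between replicates.

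Potassium pumps and cation-chloride cotransporters were detected in 8 of 16 cases, beside 55.5% of all genes. Of the 16, 3 had no count, beside 17.9% of all genes. ATP1B1, a beta subunit of the sodium-potassium pump, had 354, 316 and 388 TPM, far above every channel gene. Of these 16 genes 5 were called as varying, ATP1B1 and SLC12A2 among them, beside 28.3% of all tested genes. All 13 regulators and scaffolds were detected, beside 55.5% of all genes. They were led by CALM2, one of the calmodulin genes whose product opens KCNN4 and SK channels, with 1216, 1299 and 1326 TPM. NME2, a histidine kinase that acts on KCNN4, followed with 1077, 1142 and 1038 TPM, and SGK1, a kinase that regulates several ion channels, had the lowest mean, with 8.15, 7.79 and 8.82 TPM. PIK3C2B, a lipid kinase upstream of KCNN4, was close to it with 9.12, 7.81 and 8.25 TPM, and the ranges of SGK1 and PIK3C2B overlapped. In this list 7 of 13 varied, among them CALM2, CALM3, NME2, PHPT1, PIK3C2B and DLG1, beside 28.3% of all tested genes.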

How the data were processed

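Each library has a deposited table of read counts by RefSeq transcript record, not normalized. Per the submitters' processing notes, the tools and build were FastQC, TopHat2, Cufflinks and hg19; versions, the counting tool and its strand setting are not given in the sources used here. A gene's count was that of its record with the largest total, and the 94 members had 179 records. CPM used edgeR 4.0.16 TMM sizes in R 4.3.3. TPM divided CPM by the longest GENCODE 29 transcript linked to any record of the gene, a choice made after seeing that the counted record of KCNIP3 linked to a short one. Detected means 1 CPM or more in each library. Variation was tested in edgeR with an intercept alone and no dispersion, on a deviance halved because both mates of a pair seem to be counted (1 count was rarer than 2 in each library, 484 against 712 genes in replicate 1), against a chi-square with 2 degrees of freedom. It was fitted on all 14466 genes passing filterByExpr, with Benjamini-Hochberg adjustment and a threshold of 0.05. In simulated counts of these 14466 genes it recovered 68% of 1.25-fold, 86% of 1.5-fold, 94% of 2-fold and 100% of 4-fold changes, with 9 false calls. Apart from these changes the simulation held counting noise alone, as the test assumes, so its false calls do not cover other spread between replicates. Recovery was taken over all tested genes, which had a median total of 4854.5 counts, against 213 for the tested members. DESeq2 1.42.0 gave alternative size factors. Chi-square per degree of freedom between libraries was 4.01 to 6.69, so the libraries differed by more than counting noise. This value cannot tell separate cultures from repeat preparations of the same RNA. Sequences came from GENCODE 29 and promoters from RefSeq (GRCh38.p14). Tables were made with Python 3.11.15, numpy 2.4.6 and pandas 2.3.3, and plots with matplotlib 3.10.9.

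The members, classes and lists were chosen with earlier results of these data known. Named are all detected members, the highest of each class and family, those near the threshold, those called as varying, members with no counts in classes where 10 or fewer have none, and from each list the 2 highest, the lowest and every varying gene. Other members with few counts, and KCNH1, KCNH2, KCNK9, KCNN3, KCNH3, KCNA1 to KCNA5, KCNH6, KCNQ1, KCNQ3, KCNK2, KCNK5, KCNK7, KCNJ8, KCNJ11, KCNN1, KCND2, KCND3, KCNMB2, KCNT1, ABCC8 and DPP6, were named after their values were seen. Markers served as checks. Some genes that this rule names are not reported here. The labels do not say whether the replicates came from separate cultures, so p-values measure the spread between these libraries, which may be technical.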

Additional observations from a re-analysis of the deposited data

How the results depend on the processing

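Of the results that answer a comparison, 93 values stayed close to the main one under an alternative and 41 moved. The class medians turned negative with a pseudocount of 0.1. Among the shares, 2 orders between classes turned. Voltage-gated accessory subunits passed calcium-activated pores with records summed, and voltage-gated pores passed their accessory subunits in CPM. By the mean over members, voltage-gated pores passed inward rectifiers, with 0.257 against 0.232 on the log2 scale. With accessory subunits included, the voltage-gated median of 0.0431 passed those of two-pore channels (0.0410) and inward rectifiers (0.0299). Members detected numbered 15, but 21 at 0.5 CPM, 7 at 5 CPM and 12 at 1 TPM, and 15 to 16 when 1 library was left out. Shares of all genes at these other thresholds are not given. Members varying numbered 2, but 7 with records summed (beside 40.8% of all tested genes). KCNIP4 was among those 7, and each of its 6 records held 187 counts, so shared reads may count more than once there. Members varying numbered 5 on counts as deposited and 0 with a coefficient of variation of 0.05 allowed. Under that allowance the edgeR adjusted p of KCNN4 was 0.9997 and that of KCNJ13 0.642. Without replicate 1, 2 or 3, the members called numbered 2, 1 and 0. Beside them stood 21.0%, 21.4% and 8.72% of all tested genes. KCNK1 alone was called without replicate 2. Summed CPM was 168, or 184 with records summed.

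Shares of summed TPM moved with length, record choice and the grouping of accessory subunits. In CPM they were 22.6% for voltage-gated pores, 20.4% for their accessory subunits, 40.4% for calcium-activated pores and 1.98% for calcium-activated accessory subunits. With records summed they were 22.3%, 34.3%, 31.7% and 0.939% for the same classes, and 7.01% for two-pore channels. With the length of the counted record they were 11.7%, 34.3%, 41.6% and 0.854%, with 8.64% for two-pore channels and 2.60% for inward rectifiers. With accessory subunits counted in their pore class, voltage-gated channels held 33.0% and 8 detected genes and calcium-activated channels 4 detected genes. Detected calcium-activated accessory genes numbered 2, but 0 at 1 TPM and 1 with records summed.

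With the length of the counted record KCNIP3 came to 44.99 TPM and KCNIP2 to 3.90; among detected members the length of KCNAB2 also changed, and its level moved by less than the spread between replicates. KCNK6 (3.02 TPM), KCNMB3 (0.463) and KCNQ5 (8.08) kept their length and moved only with the rescaling of all genes, as did KCNN4 (67.6). Class medians on a log2 scale were 0.0128 (CPM), -3.27 (pseudocount 0.1), 0.257 (mean) and 0.0431 (accessory included) for voltage-gated pores. For inward rectifiers they were 0.0491 (CPM), 0.0179 (records summed), -3.05 (pseudocount 0.1) and 0.232 (mean), and for two-pore channels -2.96 (pseudocount 0.1) and 0.456 (mean). For calcium-activated pores they were 0.956 (CPM), 0.873 (records summed), -1.06 (pseudocount 0.1) and 1.76 (mean). The cause of these moves was not tested beyond the choices named. No paired analysis was possible because there is only 1 group. Low counts limit precision for most members.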

Other observations

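Promoter sequence was described for the 70 members matched in RefSeq (GRCh38.p14), over 250 bases before to 50 after the start. The median ratio of observed to expected CG dinucleotides was 0.652 for the 13 detected members, 0.739 for the 39 with a count below the threshold and 0.357 for the 18 with no count, against 0.843 for all detected genes and 0.362 for the other genes. KCNN4, the highest channel gene, had 6 CG and a ratio of 0.223, while KCNIP3 had 0.965 and KCNK1 1.06. These ratios describe the sequence only.

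KCNQ1OT1, a non-coding transcript from the KCNQ1 locus, had 10.04, 9.99 and 9.93 CPM. KCNQ1 itself had 0.0293, 0.0236 and 0.128 CPM, from 2, 2 and 7 counts.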
